A study of Mus musculus with 4 samples.

Results

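The genes described here are 40 known p53-activated genes and regulators of p53, taken by symbol from a named list. All 40 were among the 16142 genes of the deposited expression table. The study expressed a form of Regnase-1, an RNase of immune cells, that carries the R111A change at the site cut by the protease MALT1. RNA was sequenced from sorted splenic CD4+ T cells of mice 12 h after antibodies to CD3 (5 µg/mL) and CD28 (1 µg/mL) were added, in 2 WT and 2 R111A libraries. The WT cells came from B6 mice, and the R111A cells from Cd4CreERT2 LSL-R111A fl/fl mice, in which tamoxifen (75 mg/kg for 5 days) removes a stop cassette and switches on the mutant together with EGFP. The protocol shared by both groups names tamoxifen, in wording that can be read as covering the WT mice or the R111A mice alone. Only the R111A cells carried CreERT2, EGFP and extra Regnase-1, and the parts of these in any difference cannot be told apart.

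p53, encoded by Trp53, is a transcription factor that is held at a low level by MDM2 and MDM4 and is stabilised when DNA is damaged or when cells are stressed. It switches on genes that stop the cell cycle, repair DNA, adjust metabolism or kill the cell, and some of its targets, MDM2 among them, act back to limit it. In T cells, p53 is known to restrain division after antigen receptor stimulation, and many of its targets also respond to other regulators.

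Zc3h12a, the gene of Regnase-1, was listed at 16.97 and 15.72 FPKM (a level scaled to transcript length and to the fragments sequenced) in WT against 196.30 and 130.87 FPKM in R111A, the direction of the labels. These values may hold fragments of the transgene. T cell markers, Cd4 among them, were abundant in all libraries. The 8 genes summed to 2213.89 and 2217.17 FPKM in WT and to 2056.04 and 1942.30 FPKM in R111A, and most of that sum was not Cd4. Of these 8, both R111A libraries lay above both WT libraries for 2 (32.0% of all genes tested) and below them for 5 (46.3%). Cd4 was among the 5, at 157.54 and 131.28 FPKM in WT and 70.69 and 51.35 FPKM in R111A, while Cd3d and Lat were the 2 above. The Cd4 log2 fold change was -1.24 (limma adjusted p = 0.000568), a change of more than 2-fold.

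Of the 40 genes, 35 had a mean of at least 1 FPKM over the 4 libraries and were tested, each of them also reaching that mean in both groups. The other 5 were Ptpn14, Eda2r, Steap3, Dcxr and Pltp. Summed over the 40, the level was 695.6 and 715.1 FPKM in WT and 2130.7 and 2091.0 FPKM in R111A, with both R111A libraries far above both WT libraries. The median of the 35 was 9.29 and 9.09 FPKM in WT and 30.47 and 26.57 FPKM in R111A, whereas the median of all 9831 genes tested was 14.98 FPKM in each WT library and 13.68 and 13.89 FPKM in R111A.

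With limma on log2(FPKM + 1), a scale that understates the change of low genes, 19 of the 35 were called higher in R111A (at least 2-fold, with an adjusted p under 0.05), against 8.52% of all genes tested. Only Tigar, 1 of the 35, was called lower, against 8.34% of all genes. Without the 2-fold threshold, 26 were higher and 2 lower, against 21.2% and 32.1% of all genes. Both R111A libraries lay above both WT libraries for 29 of the 35 (32.0% of all genes) and below them for 3 (46.3% of all genes). The median log2 fold change was 1.15 over the 35 and -0.12 over all genes tested.

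With 2 libraries against 2, the smallest two-sided p of an exact permutation test on 1 gene is 0.333, and limma's adjusted p-values draw on spread pooled over genes. The labels do not say that the libraries came from separate animals, so p measures the spread between these samples, which may be technical. Fewer cells expressing a gene and less RNA of it per cell cannot be told apart in bulk RNA. Rescaling each library to the same sum (TPM) moved the median of all genes by -0.30 on the log2 scale, and 580 genes were then called higher and 1756 lower (24.8% of called genes higher), in place of 838 and 820 (50.5%). Relative to the median of all genes, the median of the 35 stood at 1.27 as deposited and at 1.26 after that rescaling. Rescaling divides all genes of a library by a single number, so this distance was bound to stay nearly the same.

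**Figure D1:**
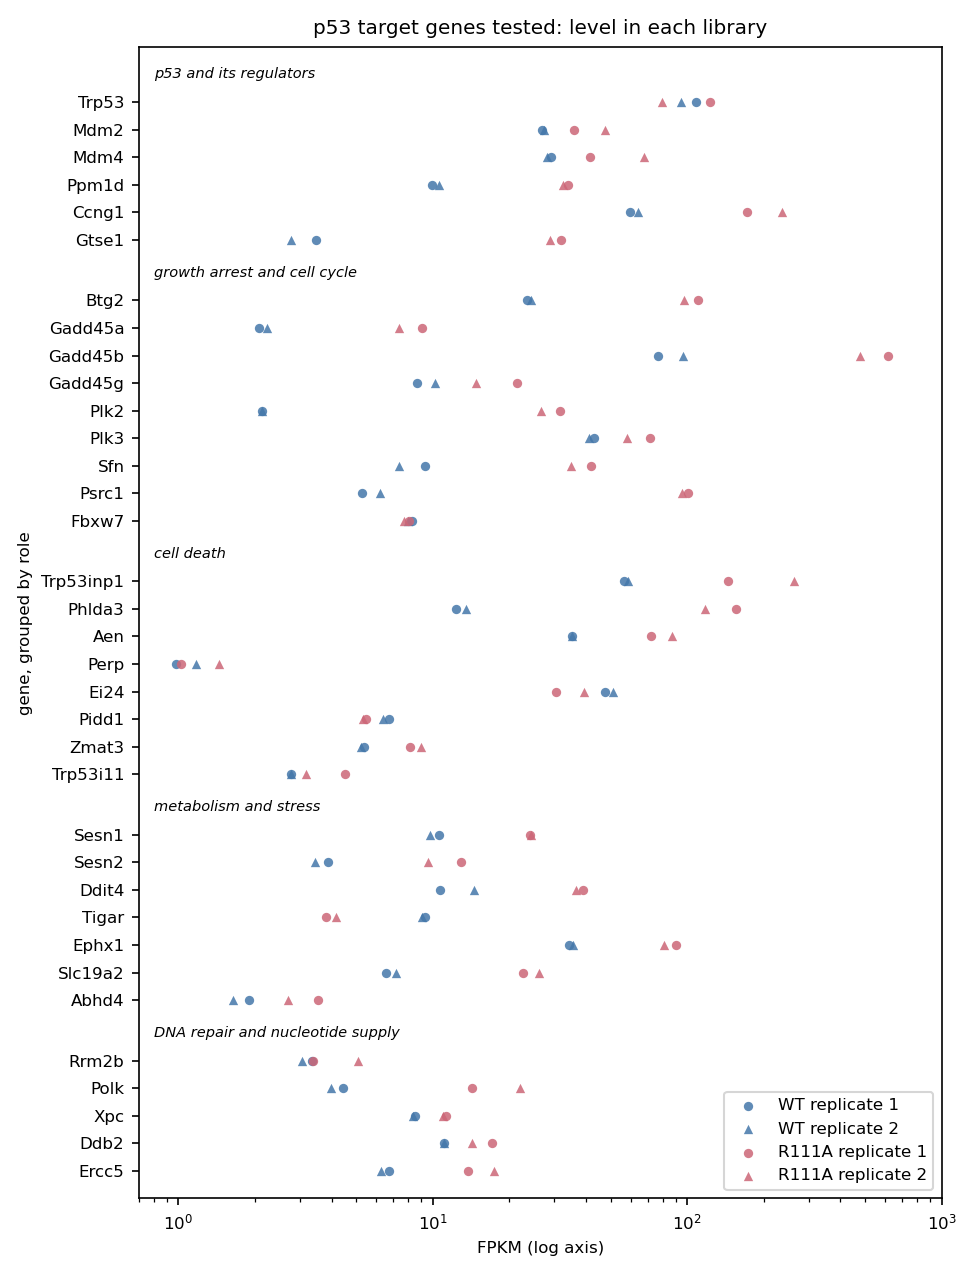
Level of the 35 p53 target genes tested, in FPKM on a log axis, with 1 point per library (circles, replicate 1; triangles, replicate 2) and genes grouped by role. For 29 genes both R111A points lie to the right of both WT points, and for Ei24, Pidd1 and Tigar they lie to the left.

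Trp53 itself, on chromosome 11 (NCBI gene 22059; chr11:69580348-69591873, GRCm38.p6), was at 107.90 and 94.85 FPKM in WT against 122.55 and 79.47 FPKM in R111A. The R111A values lay on either side of the WT values, so the groups overlapped. The log2 fold change was -0.04 (SE 0.20, limma adjusted p = 0.897), with a 95% interval from -0.49 to 0.42. Its size and sign depended on the scaling and on the libraries kept. It was -0.37 after rescaling to TPM (limma adjusted p = 0.0911), 0.06 with median-of-ratios factors (limma adjusted p = 0.835), 0.06 without WT replicate 1 (limma adjusted p = 0.893), -0.34 without R111A replicate 1 (limma adjusted p = 0.041) and 0.27 without R111A replicate 2 (limma adjusted p = 0.078), the adjusted p of all 12 alternatives ranging from 0.041 to 0.916.

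Mdm2, which encodes the ubiquitin ligase that marks p53 for destruction, was at 26.89 and 27.48 FPKM in WT against 36.03 and 47.61 FPKM in R111A. Both R111A values were above WT, by less than 2-fold (log2 fold change 0.59, SE 0.16, limma adjusted p = 0.0134). The adjusted p was no longer under 0.05 after rescaling to TPM, without WT replicate 1 and without WT replicate 2, at log2 fold changes of 0.27, 0.58 and 0.61 (limma adjusted p = 0.183, 0.0966 and 0.0776, where all 12 alternatives ranged from 0.000846 to 0.183). Mdm4, whose protein binds p53 and blocks its activity, was at 29.04 and 28.10 FPKM in WT against 41.34 and 67.89 FPKM in R111A. It too was higher in both R111A libraries, which differed widely from each other (log2 fold change 0.87, SE 0.21, limma adjusted p = 0.00862). Its log2 fold change was 1.22 without R111A replicate 1 and 0.52 without R111A replicate 2. With no filter on low genes its adjusted p was over 0.05 at the same change of 0.87 (limma adjusted p = 0.0594, in a range from 4.34e-07 to 0.0594). The lowest value came from the fit with the replicate number added as a block, which used only spread pooled over genes.

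The remaining regulators rose further. Ppm1d, encoding the phosphatase WIP1 that switches off p53 signalling, was at 9.90 and 10.53 FPKM in WT against 33.93 and 32.38 FPKM in R111A (log2 fold change 1.61, SE 0.13, limma adjusted p = 3.59e-05). Ccng1, the cyclin G1 gene, was at 59.53 and 64.10 FPKM in WT against 172.40 and 235.92 FPKM in R111A (log2 fold change 1.69, SE 0.17, limma adjusted p = 7.88e-05). Both genes were higher in R111A by more than the replicates differed. Gtse1, whose product binds microtubules and moves p53 out of the nucleus, was scarce in WT, at 3.46 and 2.77 FPKM, and reached 31.80 and 28.78 FPKM in R111A (log2 fold change 2.93, SE 0.15, limma adjusted p = 4.92e-06).

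Ccng1 and Gtse1 were the 2 genes whose promoters held a p53 response element, and their sequences are shown for that reason. RefSeq promoters, from 250 bases before to 50 bases after the start, were found for 34 of the 40, and not for Trp53inp1, Perp, Zmat3, Rrm2b, Xpc and Ddb2. The p53 response element was taken as 2 adjacent decamers with no bases between them, with at most 2 mismatches in 20 and the C at position 4 and the G at position 7 of each decamer kept, and it reads the same on both strands. It was present in 2 of the 34 (5.88%), against 0.392% of all 27025 genes with a promoter and 0.326% of all 32851 promoters. Of the genes tested that had a promoter, 0.435% held it. Among the other p53-activated genes described further on, 3 of 25 promoters held it, those of Cdkn1a, Rps27l and Zfp365. Rps27l was not past the adjusted p (log2 fold change 0.42, limma adjusted p = 0.0566). Zfp365 was past the adjusted p alone, at 0.70 and 0.50 FPKM in WT and 2.10 and 2.25 FPKM in R111A. Its log2 fold change was 0.99 on the FPKM + 1 scale, which understates the change of such low genes. Only Cdkn1a is shown beside Ccng1 and Gtse1. Capitals mark the element, which had 1 mismatch in each gene shown.
Ccng1: aggccAGACCTGCCCGGGCAAGCCTtggca
Gtse1: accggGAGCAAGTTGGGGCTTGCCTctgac
Cdkn1a: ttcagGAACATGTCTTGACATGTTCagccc
In GRCm38.p6 the elements lie at chr11:40755462-40755481 on the minus strand for Ccng1, at chr15:85859945-85859964 on the plus strand for Gtse1, and at chr17:29090928-29090947 on the plus strand for Cdkn1a. The Gtse1 element spans the start used for its promoter, while the gene as annotated begins upstream of that, at chr15:85859691. A match describes the letters only, and no match says only that these letters are not in this window.

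Genes of growth arrest and the cell cycle included the largest change among the 35, and 6 of the 9 tested were called higher (8.52% of all genes tested). Psrc1, encoding a spindle protein, was at 5.28 and 6.21 FPKM in WT against 100.47 and 95.65 FPKM in R111A (log2 fold change 3.88, SE 0.14, limma adjusted p = 2.73e-06). Plk2, a polo-like kinase induced by stress, was at 2.14 FPKM in both WT libraries and at 31.66 and 26.57 FPKM in R111A (log2 fold change 3.26, SE 0.15, limma adjusted p = 3.44e-06). Both were low in WT and well above it in each R111A library. Plk3, its relative, began higher, at 42.85 and 41.20 FPKM in WT, and stood at 71.72 and 57.75 FPKM in R111A (log2 fold change 0.60, SE 0.15, limma adjusted p = 0.00804). That smaller difference was no longer past the threshold after rescaling to TPM, without WT replicate 1 or without WT replicate 2, at log2 fold changes of 0.28, 0.63 and 0.58 (limma adjusted p = 0.122, 0.0569 and 0.0861, in a range from 0.000501 to 0.122).

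The 3 Gadd45 genes encode small proteins that bind stress kinases and cell cycle regulators. Gadd45b was the most abundant of the 40 in R111A, at 617.30 and 476.11 FPKM there and at 76.81 and 96.23 FPKM in WT (log2 fold change 2.64, SE 0.17, limma adjusted p = 1.21e-05). Gadd45a was at 2.07 and 2.22 FPKM in WT against 9.05 and 7.34 FPKM in R111A (log2 fold change 1.54, SE 0.15, limma adjusted p = 8.3e-05). All 3 were higher in both R111A libraries, but Gadd45g, at 8.65 and 10.16 FPKM in WT and 21.50 and 14.83 FPKM in R111A, was under a 2-fold change (log2 fold change 0.86, SE 0.19, limma adjusted p = 0.00504). Without R111A replicate 2 Gadd45g was over it, at 1.12. The Gadd45a change was under 2-fold with a pseudocount of 5 FPKM (0.88). Of the Gadd45a exon bases, 19.46% also belong to a gene on the opposite strand, E230016M11Rik, and without stated use of strand in the counting their reads cannot be told apart.

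Btg2, an antiproliferative gene of quiescent lymphocytes, was at 23.37 and 24.33 FPKM in WT against 110.74 and 97.01 FPKM in R111A (log2 fold change 2.07, SE 0.13, limma adjusted p = 1.21e-05). Sfn, encoding 14-3-3 sigma, which holds cells before mitosis, was at 9.34 and 7.37 FPKM in WT against 41.99 and 34.99 FPKM in R111A (log2 fold change 2.08, SE 0.16, limma adjusted p = 2.88e-05). Both R111A libraries were far above WT for these genes. Fbxw7, a ubiquitin ligase subunit that targets cyclin E and MYC, was at 8.28 and 7.97 FPKM in WT against 8.09 and 7.72 FPKM in R111A, and the groups overlapped. Ptpn14, a phosphatase gene, did not exceed 0.03 FPKM in any library.

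Of the cell death genes, 3 of 8 tested were called higher (8.52% of all genes tested) and none lower (8.34%). Phlda3, encoding an inhibitor of AKT, was at 12.39 and 13.52 FPKM in WT against 156.03 and 117.70 FPKM in R111A (log2 fold change 3.29, SE 0.16, limma adjusted p = 4.48e-06). Trp53inp1, whose product promotes p53 activity and autophagy, was at 56.36 and 58.75 FPKM in WT against 145.08 and 262.78 FPKM in R111A (log2 fold change 1.75, SE 0.24, limma adjusted p = 0.00049). Its R111A libraries differed by 0.85 on the log2 scale, the widest replicate difference of the 35, and both were still far above WT. Aen, an exonuclease gene of apoptosis, was at 35.24 and 35.09 FPKM in WT against 71.98 and 87.45 FPKM in R111A (log2 fold change 1.15, SE 0.14, limma adjusted p = 0.00026), and fell under a 2-fold change after rescaling to TPM (0.82).

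Of the other 5 cell death genes tested, 2 were past the adjusted p, Zmat3 higher (21.2% of all genes tested) and Ei24 lower (32.1%). Zmat3, encoding an RNA-binding protein that shapes splicing, was at 5.35 and 5.21 FPKM in WT against 8.17 and 9.02 FPKM in R111A. It was past the adjusted p alone, at a log2 fold change of 0.61 (limma adjusted p = 0.00629). In TPM values, without WT replicate 1 and without WT replicate 2 the change was 0.32, 0.63 and 0.59 and the adjusted p was over 0.05 (limma adjusted p = 0.0976, 0.0762 and 0.0944, in a range from 0.00157 to 0.0976). Ei24, a gene of the endoplasmic reticulum and autophagy, was lower, at 47.31 and 50.93 FPKM in WT against 30.47 and 39.28 FPKM in R111A (log2 fold change -0.49, SE 0.15, limma adjusted p = 0.0259). With median-of-ratios factors, with no filter, without WT replicate 1 and without WT replicate 2 the change was -0.40, -0.49, -0.54 and -0.44 and the adjusted p was over 0.05 (limma adjusted p = 0.052, 0.0667, 0.117 and 0.22, in a range from 0.000762 to 0.22).

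Pidd1, encoding the scaffold of a complex that activates caspase-2, was at 6.75 and 6.37 FPKM in WT against 5.48 and 5.33 FPKM in R111A, a difference not past the threshold as deposited (limma adjusted p = 0.173). After rescaling to TPM it was past it (limma adjusted p = 0.0107, in a range from 0.0107 to 0.617). Trp53i11 was at 2.76 and 2.77 FPKM in WT against 4.52 and 3.18 FPKM in R111A, and its log2 fold change of 0.35 was past the threshold only without R111A replicate 2, at 0.55, and was 0.10 after rescaling to TPM. Perp, a membrane protein gene of epithelial junctions, was near 1 FPKM in every library, and its groups overlapped. Eda2r, a death receptor of the TNF receptor family, reached at most 0.07 FPKM, and Steap3, a metalloreductase gene, was at 0.59 and 0.46 FPKM in WT against 0.17 and 0.08 FPKM in R111A.

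**Figure D2:**
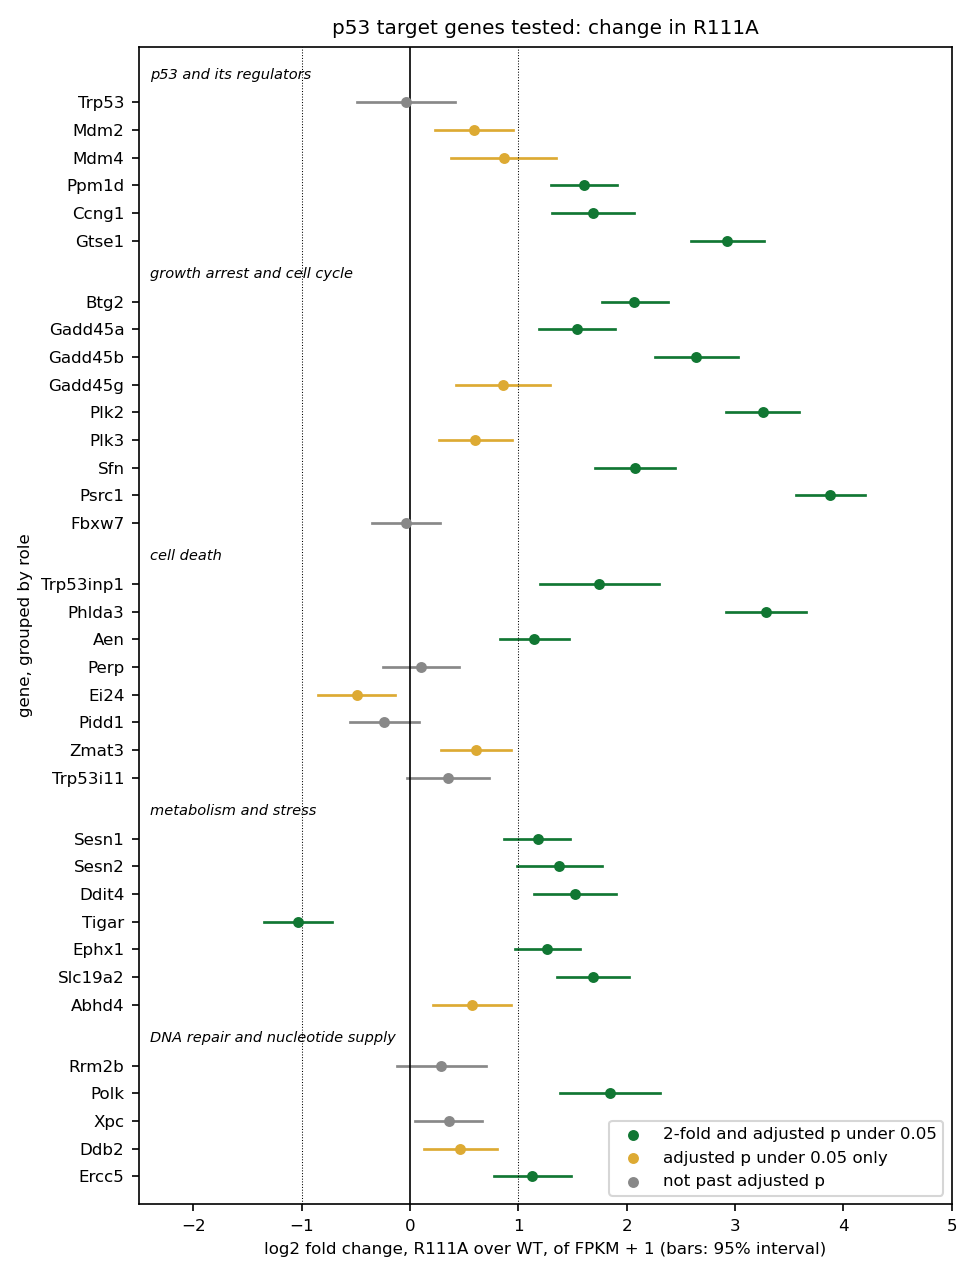
Log2 fold change of R111A over WT on the FPKM + 1 scale for the 35 genes tested, grouped by role, with bars for the 95% interval from limma and dotted lines at a 2-fold change. The 19 genes called higher range up to Psrc1 at 3.88, and Tigar at -1.03 is the 1 called lower.

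Among genes of metabolism and stress, 5 of 7 tested were called higher (8.52% of all genes tested) and 1 lower (8.34%). Sesn1 and Sesn2 encode sestrins, which restrain mTORC1 and limit oxidative stress. Sesn1 was at 10.53 and 9.77 FPKM in WT against 24.09 and 24.37 FPKM in R111A (log2 fold change 1.18, SE 0.13, limma adjusted p = 0.000173). Sesn2 was at 3.89 and 3.43 FPKM in WT against 12.86 and 9.60 FPKM in R111A (log2 fold change 1.38, SE 0.17, limma adjusted p = 0.000259). Ddit4, another mTORC1 inhibitor, encoding REDD1, was at 10.71 and 14.51 FPKM in WT against 38.93 and 36.49 FPKM in R111A (log2 fold change 1.52, SE 0.16, limma adjusted p = 0.000131). All 3 inhibitors were higher in both R111A libraries, although Sesn1 fell under a 2-fold change after rescaling to TPM (0.87) and both sestrins did with a pseudocount of 5 FPKM.

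Ephx1, encoding an epoxide hydrolase, was at 34.35 and 35.58 FPKM in WT against 90.73 and 80.71 FPKM in R111A (log2 fold change 1.27, SE 0.13, limma adjusted p = 0.000106), or 0.94 after rescaling to TPM. Slc19a2, a thiamine transporter gene, was at 6.54 and 7.17 FPKM in WT against 22.53 and 26.23 FPKM in R111A (log2 fold change 1.69, SE 0.15, limma adjusted p = 4.32e-05). Both were higher in each R111A library than in either WT library. Tigar, whose product lowers fructose-2,6-bisphosphate and so slows glycolysis, went the other way, at 9.29 and 9.09 FPKM in WT against 3.81 and 4.15 FPKM in R111A (log2 fold change -1.03, SE 0.14, limma adjusted p = 0.000418). It lay close to the 2-fold threshold and was under it with median-of-ratios factors (-0.95), with a pseudocount of 5 FPKM (-0.66) and without R111A replicate 1 (-0.98), staying lower in all 12 alternatives.

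Abhd4, a lipid hydrolase gene, was at 1.90 and 1.64 FPKM in WT against 3.55 and 2.70 FPKM in R111A (log2 fold change 0.57, SE 0.16, limma adjusted p = 0.0151). After rescaling to TPM and without WT replicate 2 the change was 0.34 and 0.50 and the adjusted p was over 0.05 (limma adjusted p = 0.0922 and 0.119, in a range from 0.00265 to 0.119). Dcxr, a sugar reductase gene, was at 0.85 and 0.87 FPKM in WT against 0.73 and 0.55 FPKM in R111A, and Pltp, a phospholipid transfer protein gene, did not exceed 0.38 FPKM.

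In DNA repair and nucleotide supply, 2 of 5 genes were called higher (8.52% of all genes tested), and all 5 had both R111A libraries above both WT libraries (32.0% of all genes tested). Polk, encoding a polymerase that copies past damaged bases, was at 4.44 and 3.98 FPKM in WT against 14.23 and 22.02 FPKM in R111A (log2 fold change 1.85, SE 0.20, limma adjusted p = 0.000135). Ercc5, encoding the XPG nuclease of nucleotide excision repair, was at 6.75 and 6.27 FPKM in WT against 13.76 and 17.39 FPKM in R111A (log2 fold change 1.13, SE 0.16, limma adjusted p = 0.000496). Without R111A replicate 2 the Ercc5 value was 0.98, under a 2-fold change, and it was 0.84 after rescaling to TPM and 0.83 with a pseudocount of 5 FPKM.

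The damage sensors of the same pathway differed by less. Ddb2 was at 11.02 and 11.06 FPKM in WT against 17.09 and 14.20 FPKM in R111A (log2 fold change 0.46, SE 0.15, limma adjusted p = 0.027). With no filter, without WT replicate 1 and without WT replicate 2 the change was still 0.46, and after rescaling to TPM it was 0.15, with an adjusted p over 0.05 in each (limma adjusted p = 0.0572, 0.221, 0.215 and 0.416, in a range from 0.00457 to 0.416). It shares 26.71% of its exon bases with Acp2 on the opposite strand, and without stated use of strand their reads cannot be told apart. Xpc, at 8.53 and 8.33 FPKM in WT and 11.25 and 10.98 FPKM in R111A, lay at the threshold (log2 fold change 0.36, SE 0.14, limma adjusted p = 0.0502) and was past it in 7 of 12 alternatives. It was not past it after rescaling to TPM, where the change was 0.06, without WT replicate 1, without WT replicate 2, with the replicate block or with no filter (limma adjusted p = 0.761, 0.332, 0.376, 0.0681 and 0.0649, in a range from 0.0214 to 0.761). Rrm2b, the p53-inducible ribonucleotide reductase subunit gene, was at 3.36 and 3.06 FPKM in WT against 3.38 and 5.06 FPKM in R111A, and its log2 fold change of 0.29 was past the threshold only without R111A replicate 1, at 0.53, and was 0.03 after rescaling to TPM.

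**Figure D3:**
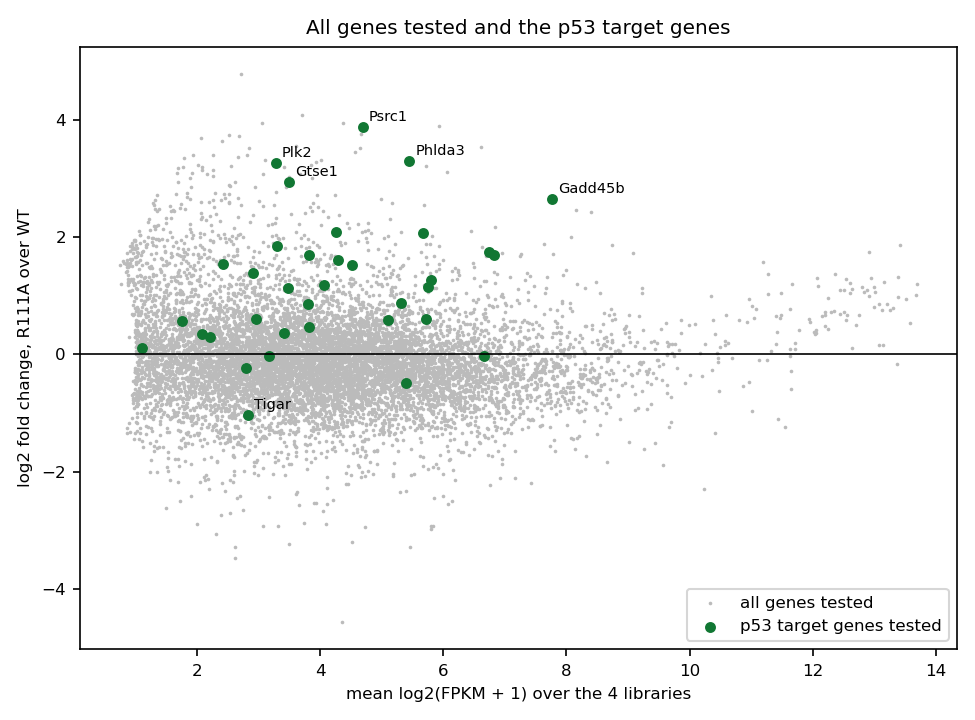
Log2 fold change of R111A over WT against the mean log2(FPKM + 1) of the 4 libraries, for the 9831 genes tested (grey) and the 35 p53 target genes tested (green). Most green points lie above 0, with a median of 1.15, while the median of all genes is -0.12.

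A second list held 29 other genes that p53 is known to activate, 24 of them tested. Of these, 9 were called higher (8.52% of all genes tested) and 2 lower (8.34%), and without the fold threshold 12 were higher (21.2%) and 5 lower (32.1%), so the shares lower were near or under those of all genes. Among the higher genes, 3 (Epha2, Ak1 and Zfp365) had a mean of at least 1 FPKM in R111A only, so their passing the filter was itself tied to a difference. Cdkn1a, encoding the CDK inhibitor p21, had the largest change on the FPKM + 1 scale, at 14.29 and 15.45 FPKM in WT and 266.09 and 206.54 FPKM in R111A (log2 fold change 3.89). Its level was close to that of Ccng1 in R111A, but far below Ccng1 in WT. Of the others called higher, Bbc3 (PUMA), Fas, Pmaip1 (NOXA), Tnfrsf10b and Apaf1 had log2 fold changes of 3.52, 2.09, 1.88, 1.28 and 1.18. The rest were Epha2, a receptor kinase gene, Ak1, an adenylate kinase gene, and Rap2b, a small GTPase gene, at log2 fold changes of 3.35, 1.85 and 1.08, Epha2 and Ak1 being at or under 0.11 FPKM in WT. Their values depended on the pseudocount: with 0.1 FPKM they were 5.83 and 4.60, above Cdkn1a at 3.97, and with 5 FPKM they were 1.56 and 0.61. The genes called lower were Lif, a cytokine gene, at -1.52, and Notch1, a receptor gene, at -1.27. After rescaling to TPM, Tnfrsf10b, Apaf1 and Rap2b were under a 2-fold change (0.98, 0.91 and 0.78), and with a pseudocount of 5 FPKM those 3, Lif (-0.86) and Ak1 were.

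**Figure D4:**
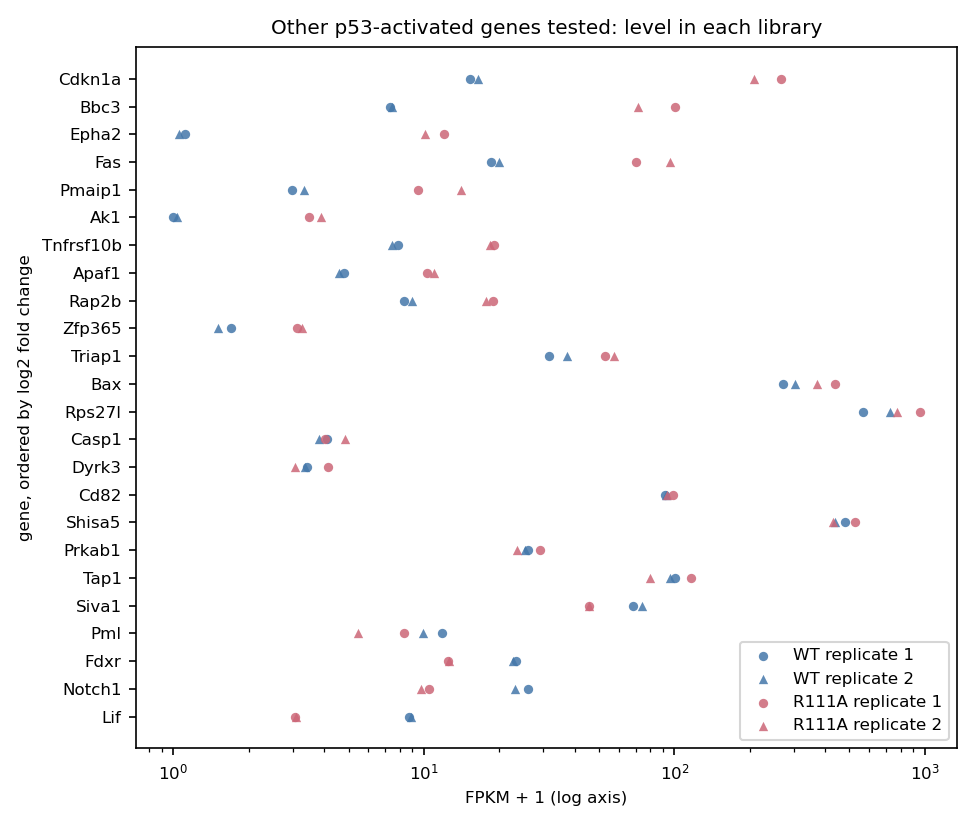
Level of the 24 other p53-activated genes tested, as FPKM + 1 on a log axis, with 1 point per library (circles, replicate 1; triangles, replicate 2), ordered by log2 fold change. Cdkn1a, at the top, and Lif, at the bottom, have log2 fold changes of 3.89 and -1.52.

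Of 21 genes acting upstream of p53 or with it, 17 were tested, none was called higher (8.52% of all genes tested) and 1, Chek1, was called lower (8.34%), while 2 were higher (21.2%) and 4 lower (32.1%) past the adjusted p alone. These shares were under those of all genes. Chek1, the checkpoint kinase of stalled replication, was at 14.69 and 15.67 FPKM in WT against 2.20 and 3.72 FPKM in R111A (log2 fold change -2.06). The ribosomal protein genes Rpl11 and Rpl5, whose proteins bind MDM2, had the next largest log2 fold changes, 0.95 and 0.82. Rpl11 was over a 2-fold change with median-of-ratios factors (1.04), without WT replicate 2 (1.06) and without R111A replicate 2 (1.07). After rescaling to TPM, Rpl11 was at 0.61 and Rpl5 at 0.49, and Usp7 and Hipk2 (both -0.87) followed Chek1 instead.

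Markers of other cell types were given by their levels, since most were under 1 FPKM and not tested. Of all genes tested, 32.0% had both R111A libraries above both WT libraries and 46.3% below, but of the 4617 genes not tested and above 0 in some library, 35.2% were above and 14.9% below. Genes at 0 numbered 3477 and 3414 in WT against 2704 and 2778 in R111A. Of 6 erythroid markers, of which only Hba-a1 was tested, 3 were listed above WT in both R111A libraries, and their sum was 0.66 and 0.70 FPKM in WT and 12.93 and 12.97 FPKM in R111A, most of it Hba-a1 in each library, with Hba-a2 and Hbb-bs at 0 in all libraries. Of 6 myeloid markers, of which only Lyz2 was tested, 5 were listed above WT in both R111A libraries, summing to 0.68 and 0.12 FPKM in WT and 4.56 and 4.26 FPKM in R111A, with Lyz2 the most abundant in R111A and Fcgr1 at 0 in all libraries. The 4 NK markers, of which only Eomes was tested, were listed above WT in both R111A libraries. They summed to 1.03 and 0.82 FPKM in WT and 7.86 and 5.68 FPKM in R111A. Most of that sum was Eomes in each library, at 6.68 and 4.32 FPKM in R111A. Whether Eomes came from NK cells or from T cells was not tested. Of 6 B cell markers, of which Cd79a and Cd79b were tested, 2 were listed above WT in both R111A libraries and 1 below, summing to 2.13 and 0.99 FPKM in WT and 5.14 and 4.50 FPKM in R111A, with Cd79a the most abundant in R111A. Hba-a1, Lyz2, Eomes and Cd79a were called higher (8.52% of all genes tested), at log2 fold changes of 3.07, 1.61, 1.80 and 1.52. Cd79b was past the adjusted p alone, at 0.68 (limma adjusted p = 0.0394). Each of these genes had a mean of at least 1 FPKM in R111A only, so its passing the filter was itself tied to a difference.

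Both CD8+ T cell markers, of which only Cd8b1 was tested, were listed below WT in both R111A libraries, summing to 7.31 and 6.76 FPKM in WT and 3.88 and 4.46 FPKM in R111A, nearly all Cd8b1. Cd8b1 was past the adjusted p alone (log2 fold change -0.62, limma adjusted p = 0.00662). Of 5 Treg markers, 4 were listed below WT in both R111A libraries. Foxp3 and Ctla4 were called lower (8.34% of all genes tested), at log2 fold changes of -1.72 and -1.90, and Il2ra and Nrp1 were not past the adjusted p. The 5 summed to 196.78 and 195.74 FPKM in WT and 142.74 and 148.33 FPKM in R111A. Most of that sum was Il2ra, at 140.21 and 136.12 FPKM in WT and 127.30 and 128.61 FPKM in R111A. Whether Il2ra and Ctla4 came from Treg cells or from other stimulated CD4+ T cells was not tested, so the sum is no measure of Treg content. Foxp3 was at 11.31 and 8.78 FPKM in WT and 2.86 and 1.86 FPKM in R111A. The part of these cell types in the p53 target values was not tested.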

How the data were processed

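Levels were the FPKM that the authors deposited for 2 WT and 2 R111A libraries. The submitters' processing notes name Bowtie2 2.4.4, RSEM 1.2.28 and mm10. No read totals were used, so the depth is unknown, and its effect on low genes could not be set. Genes averaging 1 FPKM or more were tested with limma 3.58.1 in R 4.3.3 (lmFit, and eBayes with a trend) on log2(FPKM + 1), with Benjamini-Hochberg adjustment over all 9831 genes tested. A gene was called when it changed at least 2-fold with an adjusted p under 0.05. Members and lists were chosen with earlier results of these data known, so no list was tested. Values in full were given for Trp53, Mdm2, Mdm4 and each of the 40 genes called, and for other lists the genes called (p53-activated genes) or the 3 with the largest changes. Locations and promoters came from RefSeq (GRCm38.p6), and exon overlaps from GENCODE. The 12 alternatives were other pseudocounts, filters and scalings, a replicate block, no trend, and each library left out. A planned comparison of protein sequences was not run.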

Additional observations from a re-analysis of the deposited data

How the results depend on the processing

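Of the 19 genes called higher, 15 were called with a pseudocount of 5 FPKM and 15 after rescaling to TPM. Counts without 1 library were 19 to 20, with Mdm4 added without R111A replicate 1, and Gadd45g added and Ercc5 lost (18 of the 19 kept) without R111A replicate 2. The count called lower was 1, or 0 with a pseudocount of 5 FPKM or median-of-ratios factors, and 0 to 1 without 1 library. Past the adjusted p alone, 26 higher became 21 to 28 without 1 library, and 2 lower became 1 with median-of-ratios factors and 1 to 3 without 1 library. The median log2 fold change of 1.15 became 1.24 with a pseudocount of 0.1 FPKM, 0.88 with 5 FPKM, 0.87 with no filter (over all 40), 1.27 with a filter at 5 FPKM (over 31), 0.84 after rescaling to TPM and 1.24 with median-of-ratios factors, and 1.12 to 1.19 without 1 library. All genes called numbered 1658, or 788 with a pseudocount of 5 FPKM, and 1660 to 1735 without 1 library. The filters moved the median only by changing which genes were counted, and the cause of the other shifts was not tested.

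Values that changed sign were all of genes not called: Trp53 at 0.06 and Fbxw7 at 0.05 with median-of-ratios factors, Perp at -0.08 after rescaling to TPM, and, without 1 library, Trp53 from -0.34 to 0.27 and Perp from -0.04 to 0.24. With the replicate number as a replicate block, 19 genes were called higher and 1662 of all genes were called, and no gene of the 35 changed its call. That fit used only spread pooled over genes, and it gave the lowest adjusted p in the ranges of Mdm2, Mdm4, Plk3, Zmat3 and Abhd4. The labels do not say whether same-numbered libraries were handled together, and the correlation of their deviations (0.111 over 9831 genes) cannot settle it. Of the genes tried in the alternatives, a filter at 5 FPKM left out 9 (Perp, Trp53i11, Abhd4, Rrm2b, Lif, Ak1, Cdk1, Aurkb and Trib3). Median-of-ratios factors gave no value for Aurkb. Where 1 library was left out, the lone sample was assumed to vary like the other group. The limits are 2 libraries a group, an unknown depth, and a single time of stimulation.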

Other observations

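Of 12 genes known to be repressed through p53, p21 and the DREAM complex, which silences cell cycle genes, 10 were tested, 3 were called lower (8.34% of all genes tested) and none higher (8.52%). Past the adjusted p alone, 7 were lower (32.1%) and 1, Ccnb2, was higher (21.2%). Cdk1, Aurkb and Ccnb1 had a mean of at least 1 FPKM in WT only, and Ccnb2 in R111A only, so their passing the filter was itself tied to a difference. On the FPKM + 1 scale, the largest changes (log2) were those of Top2a (-2.33), a DNA topoisomerase gene, Cdk1 (-1.44), the mitotic kinase gene, and Aurkb (-1.17), the kinase gene of chromosome segregation. With a pseudocount of 5 FPKM Top2a was at -1.34, and Cdk1 (-0.50) and Aurkb (-0.38) were under a 2-fold change. Top2a was at 11.98 and 10.84 FPKM in WT against 1.10 and 1.88 FPKM in R111A.

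All 11 FoxO target genes were tested and had both R111A libraries above both WT libraries (32.0% of all genes tested), 9 of them called higher (8.52%). Of these, Fbxo32 had a mean of at least 1 FPKM in R111A only. On the FPKM + 1 scale, the largest changes (log2) were those of Pik3ip1 (3.55), an inhibitor of PI3K, Il7r (3.01), the IL-7 receptor gene, and S1pr1 (2.51), a receptor for exit from lymphoid organs. FoxO factors and p53 share some targets, and their parts in these values were not tested.

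Of 10 ATF4 and CHOP stress genes, 9 were tested, 3 were called higher (8.52% of all genes tested) and 3 lower (8.34%). On the FPKM + 1 scale, the largest changes (log2) were those of Ddit3 (1.98), which encodes CHOP, Phgdh (-1.79), the first enzyme of serine synthesis, and Trib3 (1.67), a pseudokinase gene, which had a mean of at least 1 FPKM in R111A only and was under a 2-fold change with a pseudocount of 5 FPKM (0.78). With a pseudocount of 0.1 FPKM Trib3 had the largest change (2.34), and after rescaling to TPM Phgdh did (-2.12). Atf4 itself was at 265.43 and 267.57 FPKM in WT against 265.77 and 258.69 FPKM in R111A.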
